A study of Mus musculus with 4 samples.

Results

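Tubulins, the proteins that bind and shape microtubules, and the membrane and actin proteins of the growth cone were followed as a group of 43 genes, chosen by symbol from the 32681 genes of the deposited table. All 43 were listed there, and 42 passed the filter on low counts and were tested. The exception was Tuba8. The 4 libraries came from primary neuron cultures made from the neocortex of wild-type CD-1 mouse embryos at embryonic day 13. Cultures of 2 libraries had received a control shRNA (short hairpin RNA) by transfection and those of the other 2 with a hairpin targeting Dcps. Its product, the scavenger decapping enzyme DCPS, clears the cap remnant that is left once an mRNA has been degraded from its 3′ end. The titles of the DcpS libraries carry the same hairpin number, so an effect of that hairpin sequence apart from the loss of DcpS cannot be told apart here. The labels name no litter for any culture. Nor do they say whether each library came from a separate culture. The spread behind each p-value thus comes from 4 libraries, is moderated across all genes tested, and may be partly or wholly technical.

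Microtubules are built from heterodimers of α- and β-tubulin, and γ-tubulin seeds new ones. In young cortical neurons microtubule-associated proteins such as MAP1B, MAP2, tau and doublecortin stabilise the polymer while stathmins sequester tubulin dimers. At the tip of the growing axon the growth cone couples microtubules to bundled actin through collapsin response mediator proteins (CRMPs), fascin, drebrin and cortactin, beneath a membrane rich in GAP43, BASP1 and MARCKS proteins. Mutations in several of these genes, among them Tuba1a, Tubb2b, Tubb3 and Dcx, disturb the migration of cortical neurons.

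The libraries held 17754768 to 21793685 reads, and values are given as normalised read counts, reads divided by a size factor for each library. Dcps read 499.8 and 507 under control shRNA against 114 and 119.6 under DcpS shRNA, and its mean went from 503 ± 4.82 to 117 ± 3.60 (SD, n = 2 per group), with log2 fold change −2.10 (SE 0.11, 95% interval −2.32 to −1.87, adjusted p 1.52e-08) in limma with Benjamini-Hochberg adjustment over 18110 genes. Fold changes are on the log2(value + 1) scale. Neuronal markers were abundant in every library. Their summed normalised count over 9 genes was 31999 and 31131 in the control pair against 28924 and 29244 in the DcpS shRNA pair. Rbfox3 was called higher and Snap25 and Syt1 lower. Of the 9, 7 had negative and 2 positive values. The sum over 7 fibroblast genes was 11251 and 12352 in control 1 and 2 against 6844 and 6631 in DcpS shRNA 1 and 2, with 7 of 7 called lower, and that over 7 astrocyte genes was 4920.0 and 5243 under control shRNA against 4178 and 4397 under DcpS shRNA, with 3 of 6 tested called lower. All 6 tested astrocyte genes had negative values with an unadjusted p under 0.05 in limma. For 7 endothelial and mural genes the sum was 708 and 776 in the control pair against 442 and 412 in the DcpS shRNA pair, with 3 of 6 tested called lower. Of these 6, 5 were negative and 1 positive, with a log2 fold change of 0.93 and an unadjusted p under 0.05 in limma. Radial glia markers had 0 of 6 called, with all 6 positive and a median log2 fold change of 0.12. Microglia markers had 0 of 5 tested called, 3 negative and 2 positive. Oligodendrocyte markers had 1 of 5 tested called, Mbp, which was higher, with the other 4 negative and not called. Sox10 had no read in either control, and P2ry12 and Cldn5 had none in at least 1 library. In these bulk cultures fewer cells of a type and less RNA per cell cannot be told apart, and the part of the marker shifts in the results below was not tested.

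Tubulin isotypes share much of their coding sequence, and the acidic tail of each is encoded at its end. The last 45 coding bases, stop codon included, are printed for 6 of the isotypes the results turn on. Capitals mark the last codon before the stop. The sequences are those of GENCODE M21 transcripts (GRCm38), 5′ to 3′ on the coding strand.
Tuba1c: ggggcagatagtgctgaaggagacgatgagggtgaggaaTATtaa
Tuba4a: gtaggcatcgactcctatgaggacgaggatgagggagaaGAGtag
Tubb2a: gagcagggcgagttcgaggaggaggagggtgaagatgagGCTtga
Tubb2b: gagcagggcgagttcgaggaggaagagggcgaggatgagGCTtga
Tubb4a: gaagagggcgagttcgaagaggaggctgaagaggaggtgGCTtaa
Tubb4b: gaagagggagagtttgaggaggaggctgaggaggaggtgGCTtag
The capitals read TAT, a tyrosine codon, in Tuba1c and GAG in Tuba4a. The terminal tyrosine of α-tubulin is known as the residue removed and restored in the detyrosination cycle of microtubules, and Tuba4a does not encode it. Over the whole coding sequence Tuba1a was 98.3% identical to Tuba1b and 97.6% to Tuba1c, against 85.3% to Tuba4a. Tubb2a was 96.5% identical to Tubb2b, and Tubb4a was 83.4% identical to Tubb4b.

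The shared stretches limit which isotypes can be told apart by their reads. Of all 50-base words in the transcript, 72.9% in Tuba1a, 73.8% in Tuba1b and 61.0% in Tuba1c also occurred in the transcript of another gene. The share was 49.6% in Tubb2a, 39.3% in Tubb2b, 50.9% in Tubb4b, 36.5% in Stmn1 and 14.1% in Tubg1. In each of the other 35 members it was at most 3.52%, and in 26 it was 0. Among these 35 were Tuba4a (1.11%), Tubb4a (0.184%) and Stmn4 (0%). The split of reads among Tuba1a, Tuba1b and Tuba1c, and between Tubb2a and Tubb2b, is therefore uncertain, and the treatment of multi-mapping reads is not given in the sources used here. Exons of Gm49450, a separate gene model in the table, also overlap 26.2% of the merged exons of Tuba1a and 24.4% of those of Tuba1b.

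Many members were among the most abundant genes of these cultures. Together they took 3.24% and 3.19% of all reads in control 1 and 2, and 3.27% and 3.31% in DcpS shRNA 1 and 2, and 16 of the 43 ranked among the 100 genes with the highest mean count. Per kilobase of merged exon, the mean over the 4 libraries ran from 10.04 normalised reads for Map7 to 47681 for Tuba1a. The plot of levels by library shows that the gaps between genes were far wider than the gaps between libraries. The 2 control and 2 DcpS shRNA points of nearly every gene lie on top of each other.

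**Figure D1:**
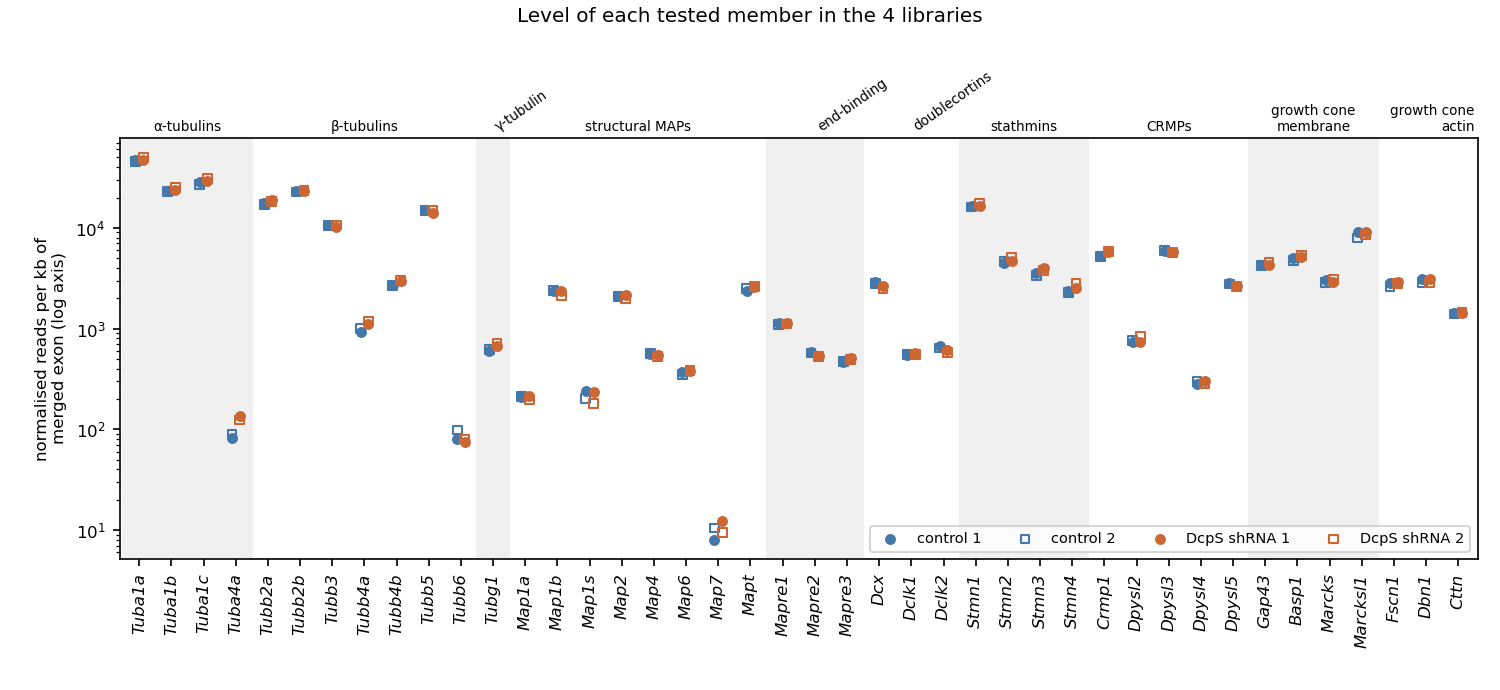
Normalised reads per kilobase of merged exon (log axis) for the 42 tested members, in control 1 and 2 (blue) and DcpS shRNA 1 and 2 (orange). Levels span from 10.04 for Map7 to 47681 for Tuba1a, and Tuba4a is the gene in which both orange points stand clear above both blue ones.

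Under DcpS shRNA 3 members were higher, Tuba4a, Tubb4a and Stmn4, and 0 were lower (limma, adjusted p under 0.05 over all genes tested). No member was called lower by edgeR or DESeq2 either. In limma 11 members had an unadjusted p under 0.05, 8 with a positive and 3 with a negative value. The same held for 3380 of all 18110 genes, 1584 positive and 1796 negative. Over all 18110 genes 2.14% were called higher and 3.65% lower, 5.79% in all, so 3 of 42 members (7.14%) is close to the background and is no result about the group. When a trend with length and GC content was removed from each library, the share of calls that were higher went from 36.9% to 56.9% over all genes, and 4 members were higher and 0 lower. The median log2 fold change was 0.048 over the tested members and 0.00074 over all genes tested. The 95% interval of the fold change lay within 1.5-fold in either direction for 40 of the 42 members, all but Tuba4a and Map7. The same held for 12517 of the 18110 genes. All 4 libraries separated by group, with no overlap between groups, in 29 members, 21 with DcpS shRNA above and 8 below. Over all genes tested the groups did not overlap in 48.4%, 24.4% above and 24.0% below.

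**Figure D2:**
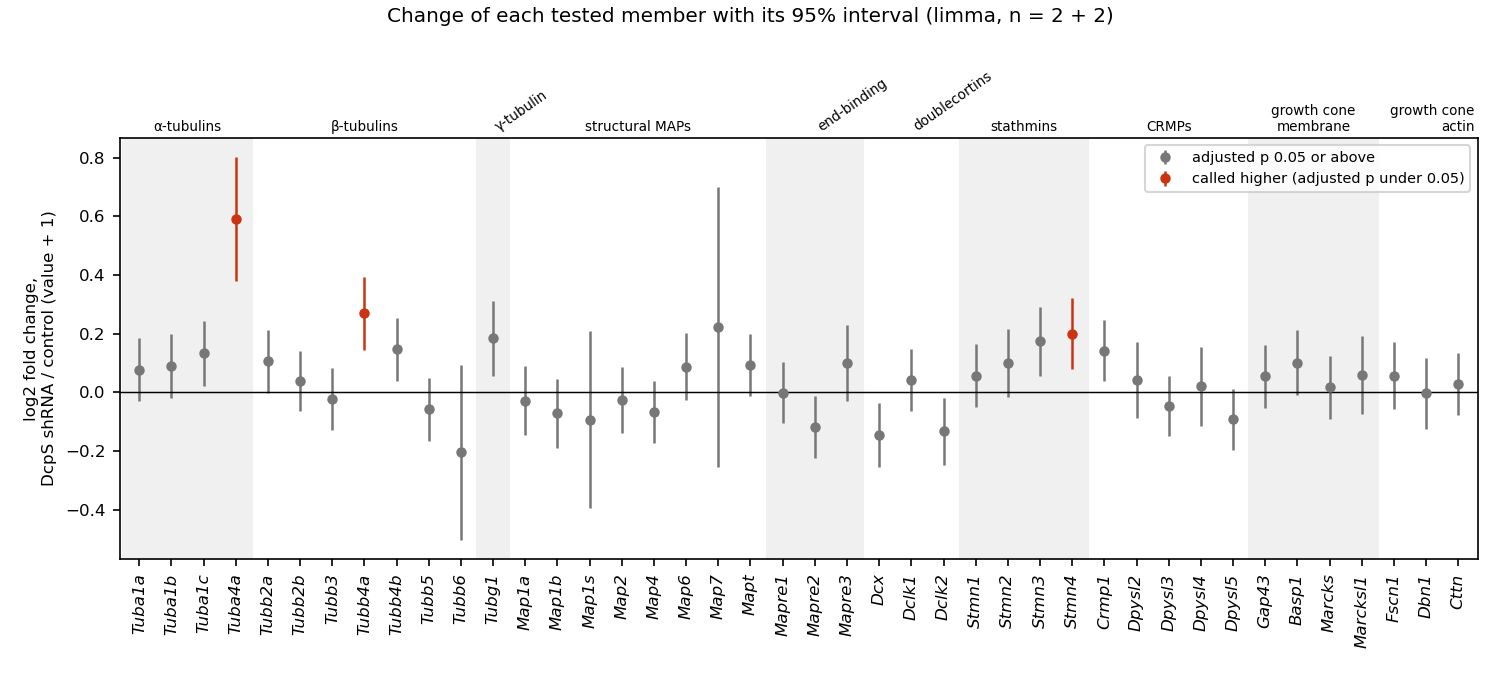
Log2 fold change of DcpS shRNA over control on the log2(value + 1) scale with its 95% interval (limma), for the 42 tested members in order of role. Red marks the 3 called members, Tuba4a at 0.59, Tubb4a at 0.27 and Stmn4 at 0.20, and the widest grey interval is that of Map7.

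Tuba4a, an α-tubulin known from mature tissues, showed the largest change of the group. It lies on chromosome 1, 75214228 to 75219865, minus strand (GRCm38). It read 236 and 253 in control 1 and 2 against 385 and 352 in DcpS shRNA 1 and 2 in normalised counts, so both DcpS shRNA libraries lay above both controls. The mean went from 244 ± 12.5 to 369 ± 23.5 (SD, n = 2 per group), a 1.51-fold rise with log2 fold change 0.59 (SE 0.100, 95% interval 0.38 to 0.80, adjusted p 0.00171) in limma with Benjamini-Hochberg adjustment. It was called in every alternative run that kept all 4 libraries. With 1 library left out, its log2 fold change ran from 0.53 without DcpS shRNA 1 to 0.65 without DcpS shRNA 2. On the opposite strand the exons of Stk16, a serine/threonine kinase gene, overlap 48.6% of the merged exons of Tuba4a, over 1379 bases. Stk16, looked at after its values were seen, read 1127 and 1056 under control shRNA against 1168 and 1171 under DcpS shRNA, with log2 fold change 0.10 (SE 0.061, 95% interval −0.029 to 0.23, adjusted p 0.410) in limma. Whether strand was used in counting is not given, so reads in that overlap cannot be told apart.

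The abundant α-tubulins did not pass the test. Tuba1a, the main α-tubulin of developing neurons and the highest member per kilobase, read 84558 and 82765 in the control pair against 85717 and 90834 in the DcpS shRNA pair, with log2 fold change 0.077 (SE 0.051, 95% interval −0.031 to 0.18, adjusted p 0.461) in limma. Tuba1b, a housekeeping isotype, read 40126 and 40334 in control 1 and 2 against 41324 and 44261 in DcpS shRNA 1 and 2 (0.088 on the log2 scale, limma, adjusted p 0.386). Tuba1c read 56031 and 53173 under control shRNA against 58405 and 61262 under DcpS shRNA (0.13 on the log2 scale, limma, adjusted p 0.169). In each of the 3 both DcpS shRNA libraries lay above both controls, with DcpS shRNA 2 the highest library. Over all tested genes 24.4% lay above without overlap. The 3 share much of their sequence, so they are not separate observations. Without DcpS shRNA 1 the log2 fold changes of Tuba1a, Tuba1b and Tuba1c were 0.12, 0.14 and 0.17. Without DcpS shRNA 2 they were 0.035, 0.039 and 0.098. Each of these runs rests on 1 DcpS shRNA library. Per kilobase, Tuba1a made up 47.8% ± 0.0796 of α-tubulin in the controls and 47.2% ± 0.0213 with DcpS shRNA (SD, n = 2 per group). Tuba4a made up 0.0887% ± 0.00602 in the controls and 0.125% ± 0.0130 with DcpS shRNA. By this measure it stayed the least abundant of the 4 tested α-tubulins in every library. Tuba8 had 1 and 3 raw reads in the control pair against 0 and 1 in the DcpS shRNA pair, too few for a comparison, since a count of 0 allows up to 3 reads.

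Of the 7 β-tubulins 1 was called, Tubb4a, and Tubb2a, Tubb2b and Tubb4b also had both DcpS shRNA libraries above both controls. Over all tested genes 2.14% were called higher and 24.4% lay above without overlap. Tubb4a, a brain isotype best known from oligodendrocytes and mature neurons (chromosome 17, 57080066 to 57087782, minus strand), read 2039 and 2213 in the control pair against 2475 and 2648 in the DcpS shRNA pair. All 4 values separated by group. Its mean went from 2126 ± 123 to 2562 ± 123 (SD, n = 2 per group), a 1.21-fold rise with log2 fold change 0.27 (SE 0.059, 95% interval 0.14 to 0.39, adjusted p 0.0113) in limma with Benjamini-Hochberg adjustment. Without control 1 the log2 fold change was 0.21 and the call ended (limma, adjusted p 0.178). The summed count of 6 oligodendrocyte markers was 492 and 523 in control 1 and 2 against 506 and 527 in DcpS shRNA 1 and 2, values that overlapped. Of the 5 tested, 1, Mbp, was called higher, while the other 4 had negative values that did not pass, and the median log2 fold change was −0.22. Their part in the rise of Tubb4a was not tested.

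Tubb2b, the most abundant β-tubulin per kilobase and one needed for neuronal migration, read 50580.3 and 49562 under control shRNA against 51197 and 51622 under DcpS shRNA, with log2 fold change 0.038 (SE 0.049, 95% interval −0.065 to 0.14, adjusted p 0.744) in limma. Tubb3, the isotype used as a neuron marker, read 19864 and 19679 in the control pair against 19013 and 19935 in the DcpS shRNA pair, and its groups overlapped (−0.022 on the log2 scale, limma, adjusted p 0.871). Tubb5, the common isotype of dividing cells, read 39994 and 39196 in control 1 and 2 against 36889 and 39184 in DcpS shRNA 1 and 2 (−0.059 on the log2 scale). The sparse Tubb6 read 142 and 173 under control shRNA against 131 and 141 under DcpS shRNA and had a log2 fold change of −0.21 with an interval of −0.50 to 0.092. In both, DcpS shRNA values lay below the controls, as in 24.0% of all tested genes. For Tubb5 the closest values were 39184 in DcpS shRNA 2 and 39196 in control 2. Tubb4b read 4341 and 4242 in the control pair against 4726 and 4772 in the DcpS shRNA pair (0.15 on the log2 scale, limma, adjusted p 0.112). Tubb2a, the near twin of Tubb2b, read 28609.5 and 27589 in control 1 and 2 against 30785 and 29654 in DcpS shRNA 1 and 2 (0.10 on the log2 scale, limma, adjusted p 0.274). Per kilobase the order of the family was Tubb2b, Tubb2a, Tubb5, Tubb3, Tubb4b, Tubb4a and Tubb6 in all 4 libraries. Tubg1, the γ-tubulin of the nucleating ring complex, read 1089.8 and 1112 under control shRNA against 1215 and 1288 under DcpS shRNA, with log2 fold change 0.18 (SE 0.060, 95% interval 0.057 to 0.31, adjusted p 0.0921) in limma.

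**Figure D3:**
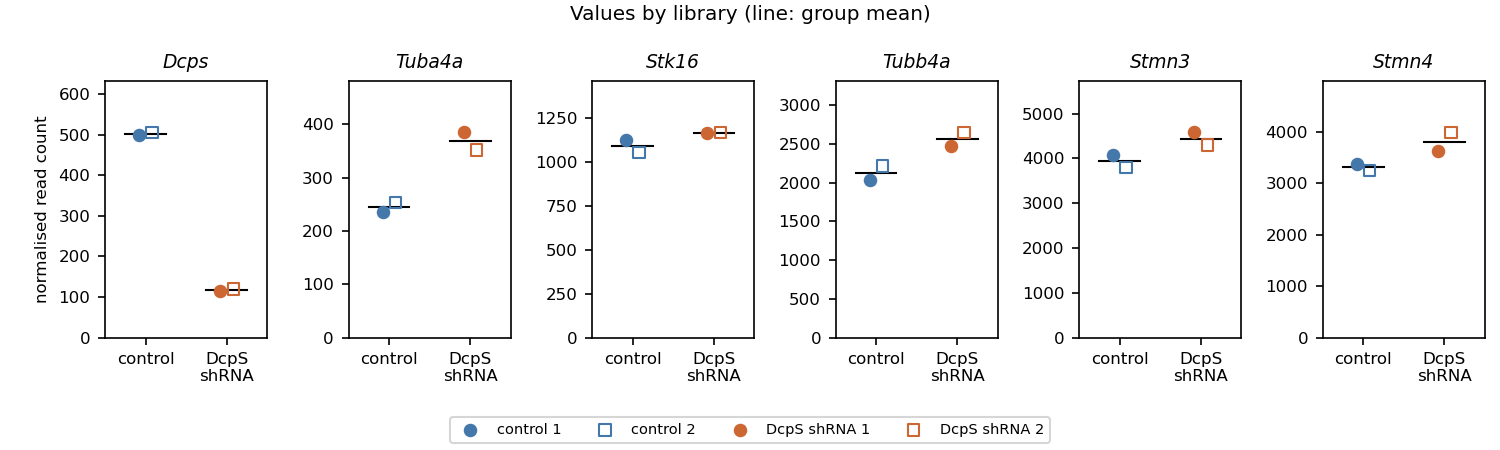
Normalised read counts by library (axes from 0, line at the group mean) for the targeted gene Dcps, the 3 called members Tuba4a, Tubb4a and Stmn4, the gene Stk16 that overlaps Tuba4a, and Stmn3. Dcps falls to 117 from 503, while Tuba4a stands at 369 against 244 and Stmn4 at 3810.3 against 3315.

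Stathmins bind free tubulin dimers and promote the shortening of microtubules. Of 4, 1 was called, Stmn4, and all 4 had both DcpS shRNA libraries above both controls, where 2.14% of all tested genes were called higher and 24.4% lay above without overlap. Stmn4 (RB3, chromosome 14, 66344296 to 66361680, plus strand) read 3378 and 3252 in the control pair against 3628 and 3993 in the DcpS shRNA pair. The values did not overlap, and DcpS shRNA 2 was the highest. Its mean went from 3315 ± 89.0 to 3810.3 ± 258 (SD, n = 2 per group), a 1.15-fold rise with log2 fold change 0.20 (SE 0.057, 95% interval 0.079 to 0.32, adjusted p 0.0498) in limma with Benjamini-Hochberg adjustment. The value lay at the edge of the threshold. The call ended with TMM scaling (0.0557), library-total scaling (0.0519), edgeR (0.0507) and DESeq2 (0.142), and without control 1 (0.143), control 2 (0.358) or DcpS shRNA 2 (0.157), all Benjamini-Hochberg adjusted p. Stmn3 read 4073 and 3794 in control 1 and 2 against 4581 and 4293 in DcpS shRNA 1 and 2 (0.17 on the log2 scale, limma, adjusted p 0.0844) and was called without a filter on low counts (adjusted p 0.0418). Its log2 fold change was 0.13 without DcpS shRNA 1 and 0.22 without DcpS shRNA 2. Stmn1, the most abundant stathmin, read 23414 and 23098 under control shRNA against 23476 and 24883 under DcpS shRNA, with log2 fold change 0.056 (SE 0.051, 95% interval −0.052 to 0.16, adjusted p 0.620) in limma. Stmn2, known as SCG10 and for its place in regrowing axons, read 9241 and 9641 in the control pair against 9687 and 10565 in the DcpS shRNA pair (0.100 on the log2 scale, limma, adjusted p 0.352).

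Of the 8 structural microtubule-associated proteins 0 were called by limma, edgeR or DESeq2, and 0 had an unadjusted p under 0.05 in limma. Of all 18110 tested genes limma called 5.79%, and 3380 had an unadjusted p under 0.05. Mapt, which encodes the axonal protein tau and was the highest of them per kilobase, read 15179 and 15879 in control 1 and 2 against 16462 and 16619 in DcpS shRNA 1 and 2, with log2 fold change 0.091 (SE 0.050, 95% interval −0.014 to 0.20, adjusted p 0.352) in limma. Map1b, the earliest of these proteins in growing axons, read 33581 and 34153 under control shRNA against 34047 and 30466 under DcpS shRNA, so that 1 DcpS shRNA library lay within the controls' range and DcpS shRNA 2 below it. Its log2 fold change was −0.072 in all 4 libraries, −0.15 without DcpS shRNA 1 and 0.0077 without DcpS shRNA 2. The dendritic Map2 read 21604 and 21319 in the control pair against 21924 and 20246 in the DcpS shRNA pair and had a log2 fold change of −0.027, with groups that overlapped. Log2 fold changes were −0.030 for Map1a, −0.066 for the broadly expressed Map4 and 0.087 for Map6, which protects microtubules from cold. Map7, a kinesin-recruiting protein and the lowest tested member, had the largest value of the 8 but read only 39.9 and 52.3 in control 1 and 2 against 60.9 and 46.9 in DcpS shRNA 1 and 2, with log2 fold change 0.22 (SE 0.23, 95% interval −0.26 to 0.70, adjusted p 0.668) in limma. Map1s read 791 and 668 under control shRNA against 779.5 and 596 under DcpS shRNA, and its groups overlapped.

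Doublecortin and its kinase relatives stabilise microtubules in migrating neurons, and 0 of 3 were called in limma, edgeR or DESeq2. Among all tested genes limma called 5.79%. Dcx, the doublecortin gene itself, read 26693 and 25957 in the control pair against 24612 and 22989 in the DcpS shRNA pair. Both DcpS shRNA libraries lay below both controls, with log2 fold change −0.15 (SE 0.052, 95% interval −0.26 to −0.036, adjusted p 0.126) in limma. Over all tested genes 24.0% lay below without overlap. Dcx was called lower without a filter on low counts (limma, adjusted p 0.0107). Its log2 fold change was −0.20 without DcpS shRNA 1 and −0.097 without DcpS shRNA 2. In all 4 libraries with the length and GC trend removed its log2 fold change was −0.062 (limma, adjusted p 0.447). Dclk2 read 5852 and 5605 in control 1 and 2 against 5412 and 5034 in DcpS shRNA 1 and 2 (−0.13 on the log2 scale, limma, adjusted p 0.184). Dclk1 differed in direction, with a log2 fold change of 0.043 that did not pass the test. End-binding proteins track the growing plus ends of microtubules, and 0 of 3 were called by these 3 tools. Mapre1, or EB1, read 8327 and 8104 under control shRNA against 8252 and 8159 under DcpS shRNA, with log2 fold change −0.0016 (SE 0.049, 95% interval −0.11 to 0.10, adjusted p 0.991) in limma, the value closest to 0 in the group. Mapre2 read 3960.3 and 3886 in the control pair against 3615 and 3612 in the DcpS shRNA pair, without overlap (−0.12 on the log2 scale, SE 0.051, limma, adjusted p 0.215), and Mapre3 had a log2 fold change of 0.10.

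Collapsin response mediator proteins bind tubulin and carry semaphorin signals in the growth cone, and 0 of 5 were called in limma, edgeR or DESeq2. Among all tested genes limma called 5.79%. Crmp1, the family member with the largest value, read 17681 and 17720.1 in control 1 and 2 against 19321 and 19746 in DcpS shRNA 1 and 2, with log2 fold change 0.14 (SE 0.049, 95% interval 0.039 to 0.25, adjusted p 0.111) in limma. It was called higher without a filter on low counts (limma, adjusted p 0.0162) and with the length and GC trend removed (adjusted p 0.0316). Its log2 fold change was 0.16 without DcpS shRNA 1 and 0.13 without DcpS shRNA 2. Dpysl3, the most abundant per kilobase, read 36143 and 36237 under control shRNA against 35216 and 34924 under DcpS shRNA, a gap that was narrow but without overlap (−0.045 on the log2 scale, SE 0.048, limma, adjusted p 0.685). Dpysl5 read 17821 and 17493 in the control pair against 16753 and 16379 in the DcpS shRNA pair (−0.092 on the log2 scale), also without overlap. Over all tested genes the groups did not overlap in 48.4%, with 24.0% below. Dpysl2 and Dpysl4 had log2 fold changes of 0.042 and 0.020, and their groups overlapped.

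The 7 growth cone genes of the membrane and of actin bundles had log2 fold changes from −0.0035 to 0.10 and 0 called in limma, edgeR or DESeq2. None had an unadjusted p under 0.05 in limma. Of all 18110 tested genes limma called 5.79%, and 3380 had an unadjusted p under 0.05. Basp1, a myristoylated membrane protein, read 9283 and 8716 in control 1 and 2 against 9488 and 9810.5 in DcpS shRNA 1 and 2, with log2 fold change 0.10 (SE 0.052, 95% interval −0.0089 to 0.21, adjusted p 0.318) in limma. Marcksl1, the most abundant of the membrane proteins, read 14616 and 12727 under control shRNA against 14669 and 13727 under DcpS shRNA, and its groups overlapped (0.057 on the log2 scale, SE 0.063, limma, adjusted p 0.695). Gap43, the classic growth cone protein, read 6029.8 and 6023 in the control pair against 6078 and 6439 in the DcpS shRNA pair, and Marcks, a substrate of protein kinase C, had a log2 fold change of 0.017. Among actin proteins the bundling protein fascin, Fscn1, read 7654 and 7021 in control 1 and 2 against 7714 and 7532 in DcpS shRNA 1 and 2 (0.056 on the log2 scale, SE 0.054, limma, adjusted p 0.644). Drebrin, Dbn1, the most abundant of the 3 per kilobase, read 9673 and 8797 under control shRNA against 9526 and 8889 under DcpS shRNA (−0.0035 on the log2 scale, SE 0.057, limma, adjusted p 0.985). Cortactin, Cttn, had a log2 fold change of 0.029.

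The members' values also varied with merged exon length, most of all in DcpS shRNA 2. In the 7 members with over 8 kb of merged exon, Map1a, Map1b, Map2, Map4, Dcx, Dclk1 and Dclk2, DcpS shRNA 2 lay below DcpS shRNA 1 in 7 of 7, with a median log2 difference of −0.10. In the 14 members of 1 to 2 kb, which include most tubulins and stathmins, it lay above in 11, with a median of 0.076. All tested genes showed medians of −0.11 over 8 kb and 0.037 at 1 to 2 kb. The 2 controls differed by 0.026 and −0.017 in those bins. Across the 42 members Spearman's rho between merged exon length and the log2 difference from the controls was −0.57 in DcpS shRNA 2 and −0.39 in DcpS shRNA 1. Over the 17726 tested genes with a length it was −0.17 and −0.019. These correlations are across genes that share libraries, and are given as a description. Among the members length also goes with role, and length and role cannot be told apart here. With the trend removed Tuba4a, Tubb4a and Stmn4 were still called (limma, adjusted p 0.000396, 0.00339 and 0.0174). Without DcpS shRNA 1 the log2 fold changes of Map1b, Dcx and Dclk2 were −0.15, −0.20 and −0.19. In all 4 libraries they were −0.072, −0.15 and −0.13, and none was called (limma, adjusted p 0.543, 0.126 and 0.184). With the trend removed in all 4 libraries they were 0.0015, −0.062 and −0.086 (limma, adjusted p 0.989, 0.447 and 0.298). The trend was not removed in a run without DcpS shRNA 1.

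**Figure D4:**
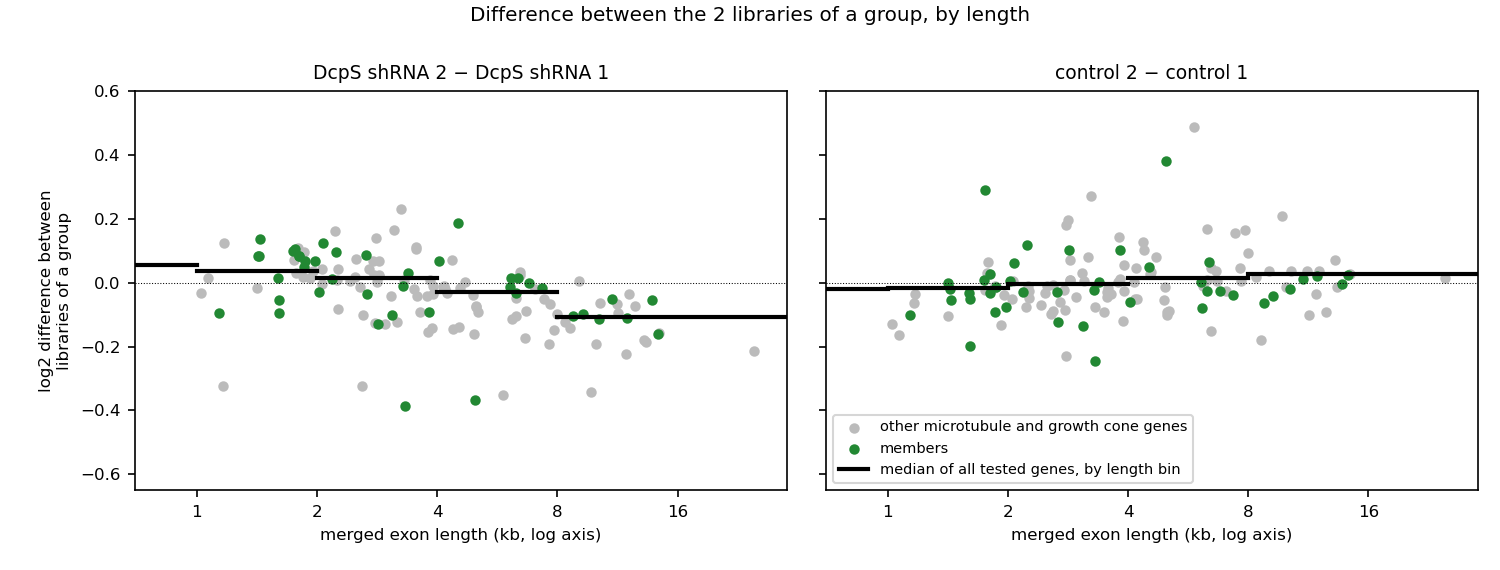
Log2 difference between the 2 DcpS shRNA libraries (left) and between the 2 controls (right) against merged exon length (log axis), for the members (green) and other microtubule and growth cone genes (grey). Black lines are medians of all tested genes by length bin, which step down from 0.037 at 1 to 2 kb to −0.11 over 8 kb on the left.

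Around the members stand the factors that fold, modify, seed, sever and transport microtubules and that drive actin in the growth cone. Of 95 such genes, all tested, 2 were higher and 4 lower (6.32%, against 5.79% of all genes), with a median log2 fold change of 0.017. Tbcd, a chaperone that assembles tubulin dimers, read 1790.1 and 1861 in the control pair against 1427 and 1394 in the DcpS shRNA pair. It fell, with log2 fold change −0.37 (SE 0.056, 95% interval −0.49 to −0.25, adjusted p 0.000653) in limma with Benjamini-Hochberg adjustment, and was the 1 gene called of 9 for tubulin folding. Katnal1, a microtubule-severing katanin subunit, read 905 and 898 in control 1 and 2 against 728 and 673 in DcpS shRNA 1 and 2 and fell by 0.37 on the log2 scale (SE 0.068, limma, adjusted p 0.00358), 1 of 7 severing genes. Both genes were called lower in every alternative run that kept all 4 libraries.

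Dync1i1, a neuronal intermediate chain of cytoplasmic dynein, read 2461 and 2793 under control shRNA against 2015 and 2223 under DcpS shRNA (−0.31 on the log2 scale, SE 0.066, limma, adjusted p 0.0109). Without control 2 its call ended (limma, adjusted p 0.175). Clasp2, which anchors microtubule plus ends, read 8157 and 8181 in the control pair against 7266 and 6935 in the DcpS shRNA pair (−0.20 on the log2 scale, SE 0.050, limma, adjusted p 0.0248), and its call ended without control 1 (adjusted p 0.226), without control 2 (0.257) and with the length and GC trend removed (0.0545).

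The 2 genes that rose were Wasf1 and Cdk5r2. Wasf1, the WAVE1 activator of branched actin, read 2031 and 2041 in control 1 and 2 against 2368 and 2406 in DcpS shRNA 1 and 2 (0.23 on the log2 scale, SE 0.053, limma, adjusted p 0.0152). Cdk5r2, the p39 activator of the kinase Cdk5, read 176 and 149.7 under control shRNA against 239 and 219 under DcpS shRNA (0.49 on the log2 scale, SE 0.12, limma, adjusted p 0.0267). DESeq2 called neither (adjusted p 0.0665 and 0.205). The call of Wasf1 ended without control 1 (limma, adjusted p 0.125) or control 2 (0.118), and that of Cdk5r2 without control 2 (0.211) or DcpS shRNA 1 (0.0868). No gene of nucleation and the minus end (12 genes) or of tubulin modification (13 genes) was called by limma, where 1 and 2 of them had an unadjusted p under 0.05. Of all 18110 tested genes 5.79% were called, and 3380 had an unadjusted p under 0.05. In the tyrosination cycle, which acts on the tail encoded by Tuba1c among others, log2 fold changes were −0.052 for the ligase Ttl and 0.24 and −0.089 for the carboxypeptidases Vash1 and Vash2 (limma, adjusted p 0.676, 0.165 and 0.411). Vash1 rested on 1 library, with log2 differences from the controls of 0.40 in DcpS shRNA 1 and 0.075 in DcpS shRNA 2.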

How the data were processed

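RNA was measured in 4 libraries, 2 per group. The deposited table holds 1 signal per gene and library: 100% of values were whole multiples of 1 unit per library (tolerance 0.001), so the authors' values were read as reads divided by a size factor, and whole reads were recovered. The submitters' processing notes list HISAT2 2.2.0, SAMtools 1.3.1, Picard, featureCounts, DESeq2 and GRCm38, without roles; neither the gene annotation nor the strand setting is given there. Such scaling would not show a shift of all transcripts together.

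The test was limma 3.58.1 (trend, robust) on log2(value + 1), two-sided, Benjamini-Hochberg adjusted over the 18110 genes passing edgeR's filterByExpr (minimum count 10). It leaves 2 residual degrees of freedom per gene, and each gene's variance is moderated towards a trend across all genes tested. An exact permutation test of 2 against 2 cannot go below p = 0.333. Alternatives used edgeR 4.0.16 and DESeq2 1.42.0 on recovered reads. A depth of 17754768 to 21793685 reads puts 3 reads at 0.138 to 0.169 CPM (counting error only). Libraries of a group differed by more than sampling noise (chi-square per degree of freedom 2.14 and 3.98). Merged exon lengths and sequences came from GENCODE M21, which matched 96.9% of the table's symbols and all 43 members. Some coding ends are not reported here. Scripts were tested on simulated reads. Members, lists and tests were chosen with earlier results of these data known. Full values are given for called members and, in each role, for the highest per kilobase and the largest change, and for called genes of the other 95.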

Additional observations from a re-analysis of the deposited data

How the results depend on the processing

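Over 14 alternatives 28 of the 42 tested members kept their side of the threshold. No member called in the main test changed sign in any alternative. In 13 members the sign differed between the main test and some alternative, without a call in either. Pseudocounts of 0.5 and 5 left the count at 3 higher and 0 lower; with TMM or library-total scaling, edgeR and DESeq2 it was 2 and 0. Without a filter on low counts 6 members were higher and 1 lower, with Dcx, Crmp1, Stmn3 and Tuba1c added. Of all 32681 genes that run called 419 higher and 741 lower. The cause of the added calls was not tested. Over all genes DESeq2 called 137 higher and 311 lower, and 0 of the other microtubule and growth cone genes higher, where 7 had an unadjusted p under 0.05; the cause was not tested. With the length and GC trend removed, chosen after seeing the data, 874 genes were higher, 7 of them among those other genes; the cause was not tested.

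Leaving out 1 library gave 225 to 490 genes higher and 369 to 949 lower, 1 to 10 members higher and 0 to 3 lower, and 0 to 7 of the other microtubule and growth cone genes higher and 2 to 9 lower. Each of these runs left 1 library in a group, so the spread came from the other group's pair alone. The chi-square per degree of freedom was 2.14 in the control pair and 3.98 in the DcpS shRNA pair.

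Both groups number their libraries 1 and 2, and same-numbered libraries hardly deviated together (correlation 0.0429). With the replicate block limma called 646 genes higher and 980 lower and 4 members higher, adding Stmn3 (adjusted p 0.0341); edgeR with the block called 504 and 881 genes and 3 members.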
